A study of Mus musculus with 12 samples.

Results

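The colony-stimulating factor axis was examined here as 6 of the 18180 genes with a row in the deposited expression table: the ligands *Csf1* and *Il34*, and the receptor genes *Csf1r*, *Csf2ra*, *Csf2rb* and *Csf3r*. Rows were chosen by symbol. All 6 had a row, and in none of the 12 libraries was any of them at or under a floor of 3 reads. The libraries came from mouse glioblastomas (GBMs) whose engineered alleles included a conditional human EGFR transgene, deletion of Cdkn2a and a conditional luciferase reporter, in adult mice of a mixed background, labelled C57Bl/6J, 129S4, FVBN/J and Balb/cJ, to which the study's methods add SJL. Tumors were started with a Cre lentivirus injected into the striatum and were taken at end stage. Every population shared this genotype and this history, so no library is from normal brain. Each of 3 tumors (T3, T4 and T5) was sorted into 4 populations of EGFR+ cells, namely PDGFRA+, PDGFRA-, GAL1+ and GAL1- cells, which gave 3 libraries per population. By the study's methods, cells were stained for EGFR and for either PDGFR or Galectin-1. The PDGFRA and GAL1 populations are thus separate splits of EGFR+ cells and do not exclude each other. PDGFRA marks glial progenitor-like cells, and GAL1 is Galectin-1, the product of *Lgals1*. The comparison between sorted populations of the same tumor asked how the transcriptomes of these EGFR+ cells differ.

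Colony-stimulating factors are secreted proteins that keep myeloid cells alive and drive their growth and maturation. CSF1 and IL34 are both ligands of CSF1R, a receptor tyrosine kinase on which microglia and most macrophages depend, and in the healthy brain IL34 comes largely from neurons. CSF2RA is the ligand-binding chain of the GM-CSF receptor, CSF2RB is the common beta chain that it shares with the IL-3 and IL-5 receptors, and CSF3R is the G-CSF receptor, best known on neutrophils and their precursors.

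Promoter sequences are shown for the members matched in the RefSeq promoter table, because genes of this group rose together with *Spi1*, which encodes PU.1, a transcription factor of myeloid cells. Each window runs from 250 bases before to 50 bases after the start of the gene and is written 5′ to 3′ on the strand of the gene, in build GRCm38.p6, whereas the reads were aligned to mm39. Of the 6 members 3 are shown. *Il34* and *Csf2rb* had no match, and *Csf1r* was not looked up, so whether it has a match is not known here. Capitals mark GAGGAA, the core letters that PU.1 binds, searched on both strands. The windows are chr3:107760420-107760719 on the minus strand for *Csf1*, chr19:61228369-61228668 on the minus strand for *Csf2ra*, and chr4:126024409-126024708 on the plus strand for *Csf3r*.
Csf1: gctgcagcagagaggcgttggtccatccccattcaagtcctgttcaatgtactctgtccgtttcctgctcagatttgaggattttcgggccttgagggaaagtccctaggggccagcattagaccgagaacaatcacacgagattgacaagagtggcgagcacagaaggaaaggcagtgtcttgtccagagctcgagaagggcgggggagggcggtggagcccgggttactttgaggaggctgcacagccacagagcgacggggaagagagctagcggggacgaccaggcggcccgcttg
Csf2ra: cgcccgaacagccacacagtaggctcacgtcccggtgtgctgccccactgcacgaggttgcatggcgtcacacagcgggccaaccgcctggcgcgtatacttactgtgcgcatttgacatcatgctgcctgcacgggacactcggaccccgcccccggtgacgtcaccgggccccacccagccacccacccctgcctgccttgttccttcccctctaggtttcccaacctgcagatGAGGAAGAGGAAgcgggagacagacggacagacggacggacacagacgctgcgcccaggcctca
Csf3r: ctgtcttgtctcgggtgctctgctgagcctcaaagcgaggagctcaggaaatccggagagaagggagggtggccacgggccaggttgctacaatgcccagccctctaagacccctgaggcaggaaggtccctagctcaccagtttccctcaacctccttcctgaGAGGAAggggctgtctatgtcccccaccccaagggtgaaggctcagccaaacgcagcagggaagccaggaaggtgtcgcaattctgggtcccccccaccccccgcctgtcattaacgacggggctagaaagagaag
The *Csf2ra* window held 2 adjacent matches that do not overlap, starting at −14 and −8 from the start of the gene. The *Csf3r* window held 1 match at −86, and the *Csf1* window held 0. The same letters occurred in 28.3% of the 32851 promoter windows of 300 bases in the table, so a match describes the sequence and marks no bound site. TTGCNNAA, the letters searched for C/EBP factors on both strands, occurred in 10.8% of all windows and in 0 of the 3 shown.

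Levels are given as log2 CPM, the log2 of the library-scaled count with an offset of 0.5 reads, and a difference of 1 on this scale is a doubling. Differences were tested with limma over all 18180 genes with the tumor as a block, and a gene was called at a Benjamini-Hochberg adjusted p under 0.05. Reads recovered per library ran from 9851175 to 24117541. The number of tumors, 3, limits every comparison. Mean *Pdgfra* was 10.30 log2 CPM in PDGFRA+ and 10.55 in GAL1- cells, against 8.70 in PDGFRA- and 7.58 in GAL1+ cells. *Lgals1* had the opposite order of means, from 6.38 in GAL1- to 7.66 in GAL1+ cells. *Pdgfra* itself was not called in PDGFRA+ over PDGFRA- cells (log2 fold change 1.60, adjusted p = 0.249 in limma). It was higher in 3 of 3 tumors there, but the libraries of these populations overlapped. The sorted cells are described as CD45-, although the methods of this sort name antibodies to EGFR, PDGFR and Galectin-1 and none to CD45. *Ptprc*, which encodes CD45, was measured in every library, with a mean of 4.60 in the GAL1- population, 6.92 and 7.46 in the PDGFRA+ and PDGFRA- populations, and 8.65 in the GAL1+ population. The PDGFRA- library of T5 stood apart from the other PDGFRA- libraries. It lay at 82.4 on the first principal component, between GAL1+ libraries at 63.8 to 120, while PDGFRA- cells of T3 and T4 lay at −13.5 and −16.8. Results that use PDGFRA- cells are therefore given with and without it where the call or the direction changes.

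Both GAL1 populations stood at the extremes of the axis. GAL1+ cells had the highest mean level of *Csf1*, *Csf1r*, *Csf2ra*, *Csf2rb* and *Csf3r*, GAL1- cells had the lowest, and both PDGFRA populations lay between them. *Il34* had the opposite order of means, highest in GAL1- and lowest in GAL1+ cells, but none of its differences passed the test. The place of GAL1- cells at the top rests on the PDGFRA- library of T5. In PDGFRA- cells of T3 and T4 *Il34* was at 2.92 and 3.03, above the GAL1- mean of 2.87. Of the 6 members, 5 rose in GAL1+ over GAL1- cells, where 28.9% of all genes rose and 29.3% fell. The median log2 fold change of the members was 3.44, beside −0.03 over all genes.

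**Figure D1:**
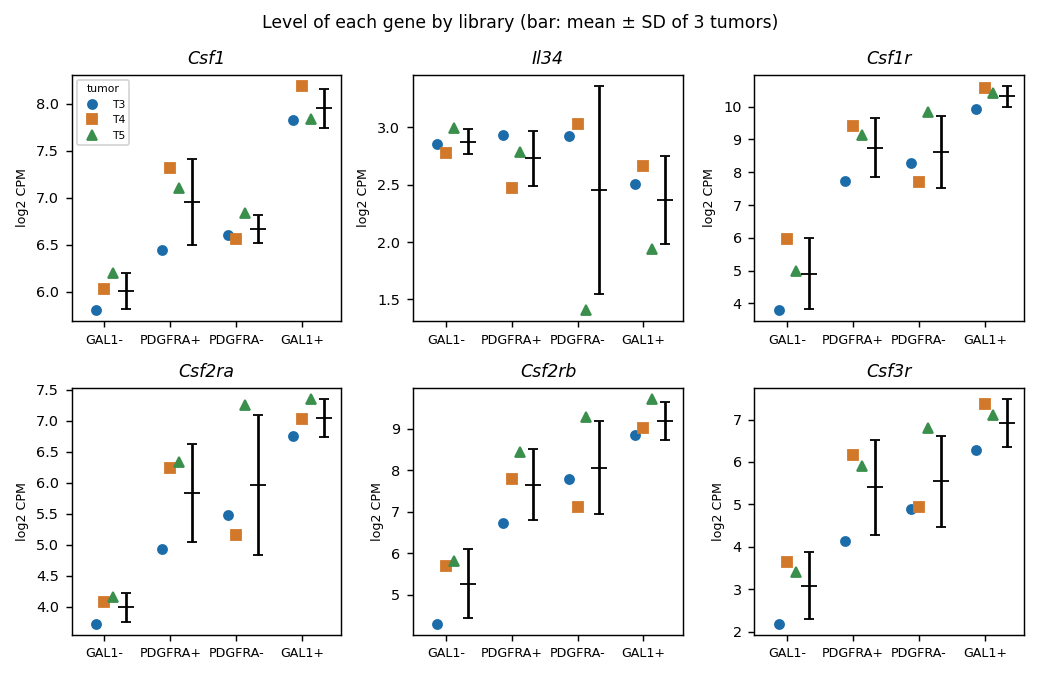
Level of each gene in log2 CPM (y axis) in the 4 sorted populations (x axis). Points are single libraries with the tumor given by shape and colour, and the bar is the mean ± SD of the 3 tumors. *Csf1* and the 4 receptor genes are lowest in GAL1- and highest in GAL1+ cells, and *Il34* is at 1.41 in PDGFRA- cells of T5.

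*Csf1*, the more widely expressed ligand of CSF1R, was at 5.80, 6.03 and 6.20 log2 CPM in GAL1- cells of T3, T4 and T5. In GAL1+ cells it was at 7.83, 8.19 and 7.84. These groups did not overlap, and each GAL1+ library was above every other library of the study. *Csf1* was at 6.44, 7.31 and 7.11 in PDGFRA+ cells and at 6.60, 6.56 and 6.84 in PDGFRA- cells, so these populations overlapped each other but neither GAL1 population. The level in GAL1+ cells was 3.85 times that in GAL1- cells (95% interval 2.95 to 5.02, log2 fold change 1.94, SE 0.17, adjusted p = 4.31e-05 in limma), and it was higher in 3 of 3 tumors. That was the smallest of the 5 called differences, although its SE was also the smallest.

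*Il34*, the other ligand of CSF1R, had few reads, from 28 to 201 per library. It was at 2.85, 2.77 and 2.99 log2 CPM in GAL1- cells of T3, T4 and T5, at 2.93, 2.47 and 2.78 in PDGFRA+ cells, at 2.92, 3.03 and 1.41 in PDGFRA- cells and at 2.51, 2.66 and 1.94 in GAL1+ cells. The GAL1+ libraries lay below the GAL1- libraries without overlap, and in T5 both GAL1+ and PDGFRA- cells were low. The log2 fold change of GAL1+ over GAL1- cells was −0.51 (SE 0.35, 95% interval −1.28 to 0.27, adjusted p = 0.235 in limma), lower in 3 of 3 tumors. *Il34* was called in 0 of the 6 pairwise comparisons.

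*Csf1r* encodes the receptor for both ligands and showed the widest range of the members. It was at 3.79, 5.96 and 4.98 log2 CPM in GAL1- cells of T3, T4 and T5, from 386 to 1486 reads. In GAL1+ cells it was at 9.94, 10.57 and 10.41. The populations were far apart, and the lowest GAL1+ library was above every library of the other populations. PDGFRA+ cells had 7.72, 9.39 and 9.14, and PDGFRA- cells had 8.29, 7.71 and 9.85. *Csf1r* in GAL1+ cells was 42.1 times its level in GAL1- cells (95% interval 19.2 to 92.6, log2 fold change 5.40, SE 0.51, adjusted p = 4.85e-05 in limma). The log2 difference was widest in T3 (6.15) and narrowest in T4 (4.61), with 5.43 in T5.

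*Csf2ra*, the ligand-binding chain for GM-CSF, was at 3.73, 4.08 and 4.16 log2 CPM in GAL1- cells of T3, T4 and T5 and at 6.75, 7.03 and 7.35 in GAL1+ cells. It was at 4.93, 6.23 and 6.34 in PDGFRA+ cells and at 5.48, 5.16 and 7.25 in PDGFRA- cells. GAL1- libraries were below all others, and the PDGFRA- library of T5 reached into the GAL1+ range. The difference of GAL1+ over GAL1- cells was 3.05 (log2, SE 0.37, adjusted p = 0.000125 in limma), and its values in the 3 tumors, 3.02, 2.95 and 3.19, were close to each other. Its SD among GAL1- libraries was 0.23, whereas that of the other receptor genes there ran from 0.78 to 1.08.

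*Csf2rb*, the signalling beta chain, was at 4.30, 5.68 and 5.80 log2 CPM in GAL1- cells of T3, T4 and T5 and at 8.83, 9.01 and 9.71 in GAL1+ cells. In PDGFRA+ cells it was at 6.73, 7.78 and 8.44, and in PDGFRA- cells at 7.78, 7.10 and 9.29. GAL1- libraries again lay below all others without overlap, and PDGFRA- cells of T5 exceeded the T3 and T4 libraries of GAL1+ cells. Its log2 fold change of GAL1+ over GAL1- cells was 3.92 (SE 0.36, adjusted p = 4.80e-05 in limma). Mice have a near-identical neighbour of this gene, *Csf2rb2*, which encodes the IL-3 specific beta chain. Reads mapping to more than 1 place were counted as fractions, so the split between these genes is uncertain, and *Csf2rb2* had a log2 fold change of 4.29 (SE 0.37, adjusted p = 4.05e-05) in the same comparison.

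*Csf3r*, the G-CSF receptor gene, was at 2.19, 3.65 and 3.41 log2 CPM in GAL1- cells of T3, T4 and T5 and at 6.29, 7.37 and 7.11 in GAL1+ cells. PDGFRA+ cells had 4.13, 6.17 and 5.90, and PDGFRA- cells had 4.90, 4.93 and 6.79. Here too GAL1- libraries were the lowest of all, and only the PDGFRA- library of T5 lay within the GAL1+ range. The difference of GAL1+ over GAL1- cells was 3.84 (log2, SE 0.39, adjusted p = 6.22e-05 in limma), with 4.10, 3.71 and 3.70 in T3, T4 and T5. The study itself picked *Csf3r* from the comparison of PDGFRA+ with GAL1+ cells in these libraries, so that comparison is not independent evidence of its direction.

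**Figure D2:**
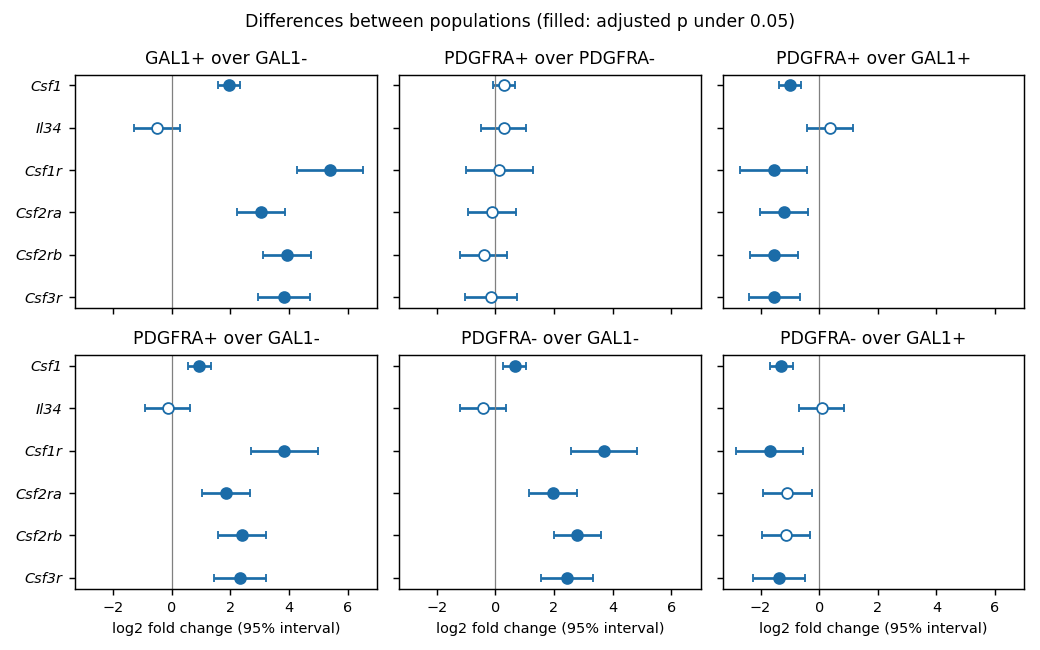
Log2 fold change (x axis, point with its 95% interval from limma) of the 6 genes in each of the 6 pairwise comparisons, one panel per comparison. Filled points have an adjusted p under 0.05 over all genes, which holds for 5 genes in GAL1+ over GAL1- cells and for 0 in PDGFRA+ over PDGFRA- cells.

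Between PDGFRA+ and PDGFRA- cells, 0 members were called. In that comparison limma called 0% of all genes, while 11.8% had an unadjusted p under 0.05, and 0 members were among them. *Csf1* and *Il34* had log2 fold changes of 0.29 (95% interval −0.10 to 0.67) and 0.28 (−0.50 to 1.05). For the receptor genes the values were 0.13 for *Csf1r* (−1.001 to 1.27), −0.13 for *Csf2ra* (−0.95 to 0.69), −0.41 for *Csf2rb* (−1.22 to 0.41) and −0.14 for *Csf3r* (−1.03 to 0.74). The interval of *Csf1r* runs from 0.4998 to 2.41 times the level in PDGFRA- cells. The 4 receptor genes were each higher in PDGFRA+ cells of T4 alone and lower in T3 and T5. For *Csf1r* the difference was −0.57 in T3 and −0.71 in T5 but 1.68 in T4. Without the PDGFRA- library of T5, *Csf2ra* and *Csf3r* changed sign, to 0.35 and 0.31, and *Il34* changed to −0.20. Leaving out all of T4 turned *Csf1r* to −0.64.

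The PDGFRA populations were also set against each GAL1 population. These comparisons share libraries with each other and with those above, so they are not independent of them. PDGFRA+ cells had 5 members lower than GAL1+ cells, where 17% of all genes fell and 20.9% rose. *Csf1* fell by 1.00 on the log2 scale (adjusted p = 0.00286 in limma), *Csf1r* by 1.56 (0.0368), *Csf2ra* by 1.21 (0.0285), *Csf2rb* by 1.54 (0.0106) and *Csf3r* by 1.52 (0.0155). *Il34* had a log2 fold change of 0.36 (adjusted p = 0.433). For these 5 genes the 2 groups did not overlap, but how many of all genes did so was not counted. Without the tumor as a block only *Csf1* was called, with adjusted p-values of 0.0945 to 0.116 for the receptor genes, and without T3 the count was 0, with 0.0522 for *Csf1* and 0.127 to 0.257 for the receptor genes. *Csf1r* alone was also not called without T5 (0.0894), without a mean-variance trend (0.0566) or after quantile normalization (0.105). Of all calls 55.1% were higher in PDGFRA+ cells, and 40.8% after centring each library on its median, where the 5 members were again called lower.

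Against GAL1- cells, 5 members rose in PDGFRA+ cells, where 8.26% of all genes rose and 0.011% fell. *Csf1r* had the largest difference, 3.84 (log2, adjusted p = 0.00231 in limma), followed by *Csf2rb* at 2.39 (0.00360), *Csf3r* at 2.31 (0.00569), *Csf2ra* at 1.84 (0.0122) and *Csf1* at 0.94 (0.00757). All 5 were higher in 3 of 3 tumors without overlap, and the share of all genes without overlap was not counted. *Il34* had a difference of −0.14 (adjusted p = 0.859). Without the block 2 members were called, *Csf1* and *Csf1r*, and the adjusted p-values of *Csf2ra*, *Csf2rb* and *Csf3r* were 0.0822, 0.0587 and 0.0860. The count was 0 without T3, with adjusted p-values of 0.0805 to 0.113, and it was 2 without T5 (*Csf1r* and *Csf3r*) and 4 without T4, where *Csf1* had 0.0586.

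PDGFRA- cells also had 5 members higher than GAL1- cells, where 16.2% of all genes rose and 6.88% fell. The log2 differences were 3.71 for *Csf1r* (adjusted p = 0.00130 in limma), 2.79 for *Csf2rb* (0.00111), 2.46 for *Csf3r* (0.00262), 1.97 for *Csf2ra* (0.00528) and 0.66 for *Csf1* (0.0243). *Il34* differed by −0.42 (adjusted p = 0.400), and by 0.06 without the PDGFRA- library of T5. Without that library *Csf1* was not called (0.61, adjusted p = 0.0929), and the 4 receptor genes were. Leaving out all of T3 or all of T5 left 2 members called, *Csf1r* and *Csf2rb*, with adjusted p-values of 0.0529 to 0.161 for the others of the 5. *Csf1* was also not called without the block (0.0960), after quantile normalization (0.0515) or with only these populations in the fit (0.0603). Among all genes 70.2% of calls were higher in PDGFRA- cells, 51.4% after median centring and 47.2% after quantile normalization.

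Between PDGFRA- and GAL1+ cells 3 members fell, where 6.91% of all genes fell and 13.2% rose. *Csf1* fell by 1.29 (log2, adjusted p = 0.00506 in limma), *Csf1r* by 1.69 (0.0441) and *Csf3r* by 1.38 (0.0381). *Csf2ra* and *Csf2rb*, at −1.08 and −1.13, had adjusted p-values of 0.0644 and 0.0546, and *Il34* was at 0.09 (0.882). Without the PDGFRA- library of T5 all 5 genes other than *Il34* were called, with −1.56 for *Csf2ra* (0.00682) and −1.44 for *Csf2rb* (0.0218). Median centring also gave 5, with −1.22 for *Csf2ra* (0.0381) and −1.27 for *Csf2rb* (0.0298), and it moved the share of all calls that were higher in PDGFRA- cells from 65.6% to 46.9%. Only *Csf1* was called without the block, where *Csf1r* had 0.144 and *Csf3r* 0.218, or without T3, where they had 0.191 and 0.188. Without T4 the count was 0, with 0.0814 for *Csf1*, and without T5 it was 4, *Csf2ra* included (0.0330). *Csf1r* and *Csf3r* were not called without a mean-variance trend (0.0689 and 0.0611), *Csf1r* after quantile normalization (0.0892) and *Csf3r* with only these populations in the fit (0.0554). In the order of levels, then, GAL1- cells were below both PDGFRA populations for the 5 genes, and the difference between those populations did not pass the test. The difference of PDGFRA- from GAL1+ cells did not pass for *Csf2ra* and *Csf2rb* in the limma fit described above, while with all libraries *Csf2rb* also passed with voom weights on recovered reads (0.0483) and with a pseudocount of 1 CPM (0.0492).

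Leukocyte genes moved with the members. All 12 listed leukocyte markers, *Ptprc* included, rose in GAL1+ over GAL1- cells, and their summed level ran from 94.2 to 241 CPM in GAL1- libraries and from 2857 to 4157 CPM in GAL1+ libraries. PDGFRA+ libraries held 670 to 1564 CPM of these transcripts and PDGFRA- libraries 742 to 3258 CPM. The 12 macrophage markers all rose as well, from 67.5 to 205 CPM in GAL1- libraries to 6713 to 8466 in GAL1+ libraries. All 10 microglia markers rose, from 256 to 542 CPM to 2189 to 3483. None of these 3 lists had a marker under the floor in all libraries of a population. Of 12 neutrophil markers 7 had a row, and 3 of these rose. Their sum was 17.6 to 52.7 CPM in GAL1- and 45.2 to 69.2 in GAL1+ libraries, groups that overlapped, and *Ly6g*, *Retnlg*, *Camp*, *Elane* and *Mpo* had no row. All 10 endothelial markers rose and 11 of 12 glial and progenitor markers fell. Of 10 neuronal markers 6 fell, of 9 measured T and NK cell markers 2 rose, and of 5 measured dendritic cell markers 3 rose. Beside these counts, 28.9% of all genes rose and 29.3% fell in the same comparison. The counts of the neutrophil, neuronal, T and NK cell and dendritic cell lists therefore say little about these cell types. The part of these cells in the members' differences was not tested. In bulk libraries, fewer cells of a type and less RNA per cell cannot be told apart.

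**Figure D3:**
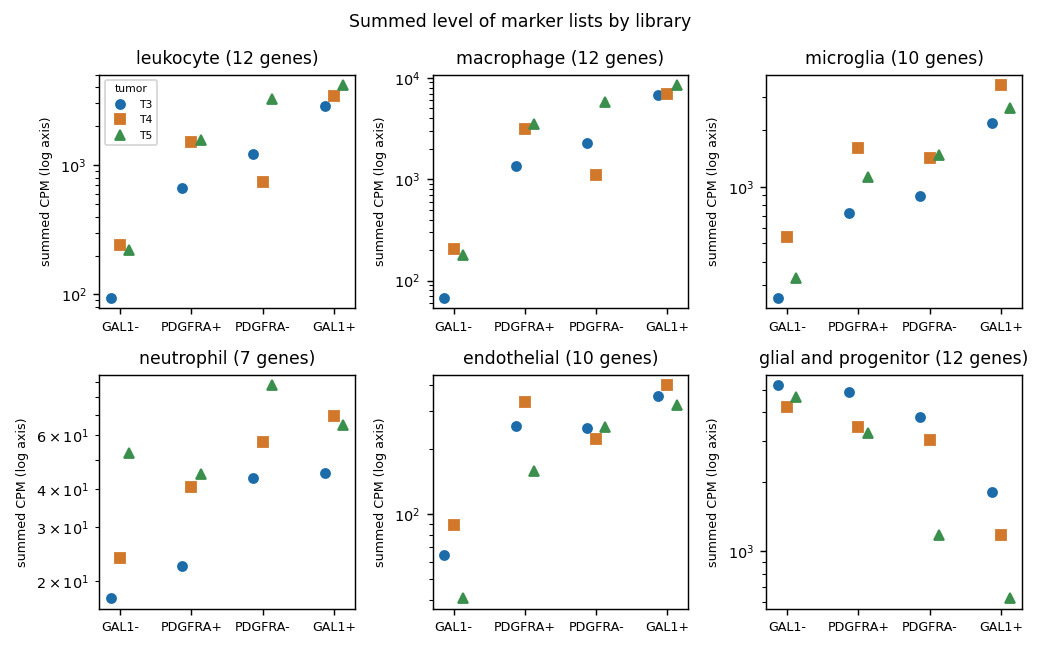
Summed level of 6 marker lists in CPM (y axis, log scale) in each library of the 4 populations (x axis), with the tumor given by shape and colour. Leukocyte, macrophage and microglia sums are lowest in the 3 GAL1- libraries and highest in the 3 GAL1+ libraries, apart from PDGFRA- cells of T5 at 3258 CPM for leukocytes, while neutrophil sums overlap between these populations.

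The members were also described relative to the mean log2 CPM of the 12 leukocyte genes, which was 3.15 in GAL1- and 7.48 in GAL1+ cells and lay at 5.91 and 6.28 in PDGFRA+ and PDGFRA- cells. These relative values were not tested. *Csf2rb* and *Csf3r* moved least on this scale. *Csf2rb* was 2.11 above the leukocyte mean in GAL1- cells and 1.74, 1.78 and 1.71 above it in PDGFRA+, PDGFRA- and GAL1+ cells, while *Csf3r* lay at −0.06, −0.51, −0.74 and −0.55 in the same order. *Csf1r* alone had a higher relative level in GAL1+ cells (2.83) than in GAL1- cells (1.76), by 1.26, 0.81 and 1.14 in T3, T4 and T5. In PDGFRA+ cells *Csf1r* was at 2.84 and in PDGFRA- cells at 2.34, with PDGFRA+ cells higher in 3 of 3 tumors. *Csf2ra* was highest in GAL1- cells, at 0.84, and lowest in GAL1+ cells, at −0.43, with −0.08 and −0.31 in PDGFRA+ and PDGFRA- cells.

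On the same scale both ligands were lower in GAL1+ than in GAL1- cells of all 3 tumors. *Csf1* was 2.86 above the leukocyte mean in GAL1- cells and 0.48 above it in GAL1+ cells, a difference of −2.38 ± 0.66 (SD over 3 tumors), although its absolute level was highest in GAL1+ cells. *Il34* went from −0.28 to −5.11, a difference of −4.83 ± 0.80. Most of this is the leukocyte mean, which went from 3.15 to 7.48, while *Il34* itself differed by −0.51 and was not called. Any gene that rises less than that mean is lower on this scale. In PDGFRA+ cells *Csf1* was at 1.04 and *Il34* at −3.18, and in PDGFRA- cells they were at 0.39 and −3.82, with *Il34* at −6.05 in T5.

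**Figure D4:**
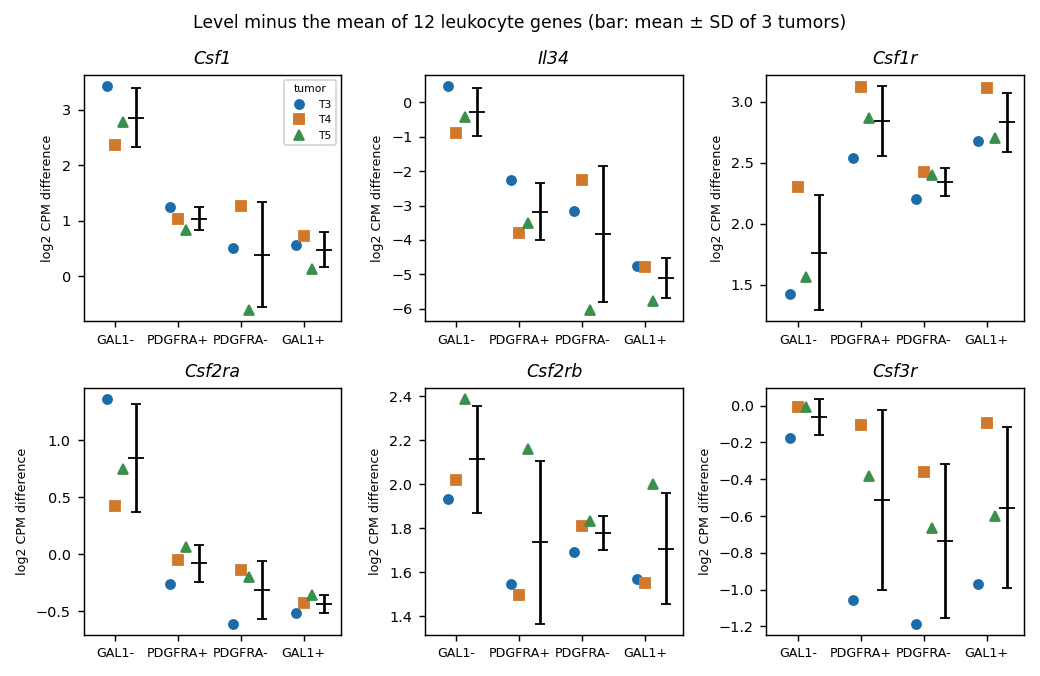
Level of each gene minus the mean log2 CPM of 12 leukocyte genes in the same library (y axis, log2 CPM difference) in the 4 populations (x axis). Points are libraries by tumor and bars are mean ± SD of 3 tumors. The mean of every gene other than *Csf1r* is highest in GAL1- cells on this scale, whereas *Csf1r* is lowest there, at 1.76.

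Other genes of the pathway were counted as whole lists in GAL1+ over GAL1- cells. Of 9 further ligand and receptor genes 6 had a row, and *Il3*, *Il5* and *Il5ra* had none. *Csf2rb2* rose, as given above, and *Il3ra*, the ligand-binding chain for IL-3, rose by 1.75 (log2, SE 0.25, adjusted p = 0.000309 in limma). *Ptprz1*, a receptor phosphatase of glial progenitors that also binds IL34, fell by 2.48 (SE 0.32, adjusted p = 0.000177). Its mean log2 CPM was 10.95 in GAL1- and 8.46 in GAL1+ cells, with 10.59 and 9.75 in PDGFRA+ and PDGFRA- cells. The means of *Il34* had the same order, which for *Il34* rests on the PDGFRA- library of T5. *Sdc1*, the heparan sulfate proteoglycan syndecan-1, differed by −0.18 (adjusted p = 0.378). *Csf2* and *Csf3*, which encode GM-CSF and G-CSF, had few reads, with 1 to 60 and 1.5 to 22.8 per library. *Csf2* was under the floor only in GAL1+ cells of T4, and *Csf3* only in PDGFRA+ cells of T4. Their log2 fold changes of −1.17 and 0.53 had adjusted p-values of 0.323 and 0.456.

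Of 32 listed genes tied to signalling by these receptors 29 rose and 0 fell in GAL1+ over GAL1- cells. Over all genes 28.9% rose and 29.3% fell. The median log2 fold change of the list was 1.67. It holds inhibitors of signalling, such as *Ptpn6* and *Socs1*, and membrane proteases beside genes that pass signals on. Among the largest differences were those of *Tyrobp* (5.13, adjusted p = 5.38e-05 in limma), an adaptor of myeloid receptors, *Syk* (4.50, adjusted p = 3.93e-05), a kinase that acts with such adaptors, and of *Ptpn6* (4.49, adjusted p = 7.26e-05), the phosphatase SHP-1. *Syk* and *Ptpn6* are expressed in many kinds of leukocytes. The 3 genes not called were *Socs1*, *Stat5b* and *Stat3*, with 0.46, 0.11 and −0.17. Of 11 transcription factors of myeloid cells 9 had a row, and *Cebpe* and *Gfi1*, which act in granulocyte maturation, had none. Here 8 rose and 1 fell, with a median of 3.26. *Spi1* rose by 4.92 (adjusted p = 5.80e-05), *Fli1* by 3.88 and *Cebpb* by 3.86, and *Cebpd* fell by 1.08 (adjusted p = 0.000185).

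**Figure D5:**
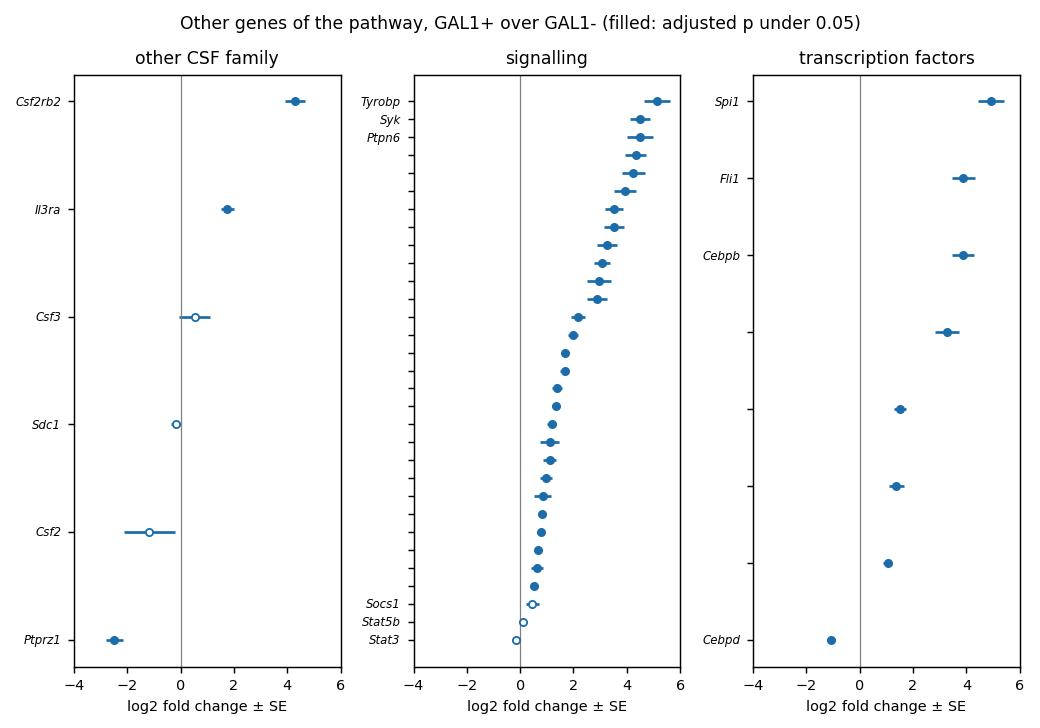
Log2 fold change of GAL1+ over GAL1- cells (x axis, ± SE from limma) for measured genes of 3 pathway lists (y axis), one panel per list, with the genes named in the text labelled and those not reported here left out. Filled points have an adjusted p under 0.05, which holds for *Csf2rb2*, *Il3ra* and *Ptprz1*, for every signalling gene drawn apart from *Socs1*, *Stat5b* and *Stat3*, and for every transcription factor drawn.

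In PDGFRA+ over PDGFRA- cells 0 genes of these 3 lists were called, where limma called 0% of all genes. In PDGFRA+ over GAL1+ cells 25 of the 32 signalling genes fell and 0 rose, and of the 9 transcription factors 6 fell and 1 rose. There 17% of all genes fell and 20.9% rose. Against GAL1- cells 17 signalling genes rose in PDGFRA+ and 23 in PDGFRA- cells, and 9 fell in PDGFRA- cells against GAL1+ cells. The shares of all genes called in the same directions were 8.26%, 16.2% and 6.91%. *Ptprz1* was higher in PDGFRA+ than in GAL1+ cells by 2.13 (log2, adjusted p = 0.00199 in limma), and in PDGFRA- than in GAL1+ cells by 1.28 (adjusted p = 0.0261).

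The genes whose levels followed each member most closely were found by Pearson's r of log2 CPM over the 12 libraries, among 13225 genes. These libraries share 3 tumors and fall into populations, and 12 points make high values common, so r is given as a description. For *Csf1* the closest were *Lonrf3* (0.979) and *Lasp1* (0.973), and for *Il34* they were *B4galt6* (0.960) and *Glo1-ps* (0.958). *Csf1r* was closest to *Itgb5* and *Lair1* (both 0.998), and *Csf2ra* to *Arid3a* (0.996) and *Rab3il1* (0.993). *Csf2rb* was closest to *Csf2rb2* (0.999), the neighbour with which it can share reads, and then to *Cd300lf* (0.998). *Csf3r* was closest to *Nlrp1c-ps* (0.997) and *AU020206* (0.996).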

How the data were processed

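Total RNA of 12 sorted populations was sequenced from stranded libraries made with 1 ng of RNA. The authors used fastp for trimming, STAR in 2 passes for alignment to mm39 and featureCounts for exonic reads, with multi-mapping reads as fractions. Tool versions are not given in the sources used here. They kept genes above 1 CPM in at least 3 samples, scaled by TMM and deposited the log2 CPM that voom returned, with replicates kept apart.

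From these log2 values, limma 3.58.1 (R 4.3.3) fitted population and tumor to all 12 libraries, moderated along a mean-variance trend, on 6 residual degrees of freedom plus 3.49 from the prior. Tests were two-sided, with Benjamini-Hochberg adjustment over 18180 genes and a threshold of 0.05. The tumor number in the labels was taken to pair libraries of 1 tumor. After subtraction of population means, same-tumor libraries had a mean r of 0.486 across genes (18 pairs, 0.140 to 0.662). Others had −0.243, a value that the subtraction ties to the first, so it adds no evidence of pairing. Reads were recovered from each library's lowest value, taken as 0 reads, and 41.3% to 59.2% came out whole (within 0.01), so no count model was used. The floor of 3 reads lay at a log2 CPM of −2.99 to −1.44 and covers counting error only. The fit was tested on simulated data.

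The members and lists were chosen with earlier results of these data known. Named beyond the members are all measured further ligand and receptor genes, the 4 largest rises and 2 largest falls called per pathway list in GAL1+ over GAL1- cells, uncalled genes of a list where 3 or fewer, unmeasured genes, *Pdgfra*, *Lgals1* and *Ptprc* as checks of the sort, and, chosen after their values were seen, the first 2 of 4 genes most like each member. Some genes that this rule names, and part of the genotype, are not reported here. Promoters came from RefSeq. Alternatives were no tumor block, no trend, a pseudocount of 1 CPM, voom weights from the recovered reads, a filter at log2 CPM 1 in 3 libraries, quantile normalization, median centring, the 2 compared groups alone, a fold above 1.5, and leaving out each tumor or PDGFRA- cells of T5. Figures used matplotlib 3.10.9.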

Additional observations from a re-analysis of the deposited data

How the results depend on the processing

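In GAL1+ over GAL1- cells 5 members were called under all 13 alternatives, and in PDGFRA+ over PDGFRA- cells 0 under all 13. The other comparisons moved. Without the replicate block, that is without pairing by tumor, 2 rather than 5 members were called in PDGFRA+ over GAL1- cells, 1 rather than 5 in PDGFRA+ over GAL1+ cells and 1 rather than 3 in PDGFRA- over GAL1+ cells, and in PDGFRA- over GAL1- cells 4 rather than 5. In PDGFRA- over GAL1+ cells, eBayes without a trend gave 1 and median centring gave 5. Leaving out 1 tumor, or the PDGFRA- library of T5, gave 0 to 5 members in PDGFRA+ over GAL1-, PDGFRA+ over GAL1+ and PDGFRA- over GAL1+ cells and 2 to 5 in PDGFRA- over GAL1- cells. With fewer libraries the fit has fewer residual degrees of freedom, but the cause of these changes was not tested for any setting.

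Signs changed only for differences that were not called. *Il34* in PDGFRA- over GAL1+ cells was −0.10 after quantile normalization, −0.055 after median centring and −0.080 to 0.57 when 1 tumor or the PDGFRA- library of T5 was left out. Over the same omissions, PDGFRA+ over PDGFRA- cells ranged from −0.64 to 0.66 for *Csf1r*, −0.73 to 0.35 for *Csf2ra*, −0.83 to 0.31 for *Csf3r* and −0.27 to 0.69 for *Il34*, and *Il34* in PDGFRA- over GAL1- cells from −0.76 to 0.16.

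Over all genes, the lowest and highest counts called were 920 and 5058 in PDGFRA- over GAL1- cells (4200 as reported), 0 and 5837 in PDGFRA- over GAL1+ cells (3652), 0 and 3386 in PDGFRA+ over GAL1- cells (1504) and 2110 and 7677 in PDGFRA+ over GAL1+ cells (6900). Median centring moved the median of all genes to −0.15 in PDGFRA+ over GAL1+, −0.13 in PDGFRA+ over GAL1- and −0.11 in PDGFRA- over GAL1+ cells, and quantile normalization to −0.15 and −0.12 in PDGFRA+ and PDGFRA- over GAL1- cells. *Il34* had 28 to 201 reads per library, *Csf2* had 1 to 60 and *Csf3* had 1.5 to 22.8. *Csf2* and *Csf3* were each under the floor of 3 reads in 1 library.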
